A study of Homo sapiens with 9 samples.

Results

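The genes described here encode the subunits of the proteasome. They are the rows of the count table whose symbol is PSMA, PSMB, PSMC or PSMD followed by a number, which gives 39 genes of 35876 in the table. The 9 libraries come from HEK293 cells, a line derived from human embryonic kidney. The Cas9 group carried the genotype CC_Cas9, the Cre group CC_Cas9_Cre and the Flpo group CC_Cas9_Flpo, each with 3 replicates and with no treatment or time given. Cas9 is an RNA-guided nuclease, Cre is a recombinase that acts on loxP sites and Flpo one that acts on FRT sites. Cas9 and a prefix CC, left unexplained in the labels, are common to all 3 groups. No promoter, targeted gene or clone is named, nor is it said whether the replicates of a group were separate cultures, so the p-values measure only the spread between these libraries, which may be technical.

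The proteasome is the protease that breaks down proteins marked with ubiquitin. Its core is a barrel of alpha rings, which gate the entrance, around beta rings, which hold the protease sites. A cap, the 19S particle, binds ubiquitin chains, removes them and threads the protein into the core with a ring of ATPases. Cells keep the subunits in step, and the transcription factor NFE2L1 is known for raising many subunit genes together when proteasome capacity is short. HEK293 is a proliferating line that depends on constant protein turnover.

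By their median level after scaling, the proteasome genes were highest in Flpo replicates 1 and 3 and lowest in Cre replicates 2 and 3. Of the 36 that could be tested, 16 were lower in Cre than in Flpo (44.4%, against 14.3% of all tested genes). No gene at all passed without Cre replicate 2, Cre replicate 3 or Flpo replicate 1, or with library depth as a covariate. No member passed the test in either comparison with Cas9 alone, where 0.0% of all tested genes passed for Cre and 0.227% for Flpo. The 16 called genes were 10 of the 14 constitutive genes of the core, 5 of the 17 genes of the cap and 1 assembly chaperone. The fold change of PSMD5, an assembly chaperone, had the opposite sign without passing the test, as did those of PSMA6, PSMC6, PSMD9 and the immunoproteasome gene PSMB9.

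Library totals spanned a 41.3-fold range (213907 estimated counts for Cre replicate 2, 8833491 for Flpo replicate 1), and every Flpo library was deeper than every Cas9 and Cre library. Depth and the Flpo group can therefore not be told apart, whereas the totals of Cas9 and Cre overlapped. Sums of marker genes are given in CPM, counts scaled to a common library total, here without the composition factor used further on. Of the 8 HEK293 markers, VIM, KRT8, KRT18, CDH2, NEFL and NEFM had a count in every group. PAX2 was at 0 in Cre and Flpo and INA at 0 in Cre, and both had a count in Cas9. At least 10 counts were reached by 5 markers in Cas9, 5 in Cre and 6 in Flpo. The list summed to 754 to 1294 CPM in Cas9, 683 to 1371 in Cre and 1243 to 3599 in Flpo. The extraction protocol speaks of livers, and of the 8 hepatocyte markers ALB, TTR, SERPINA1 and FGB were at 0 in all Cas9 and Cre libraries, while the other 4 had counts there and 7 had a count in Flpo. That list summed to 7.44 to 26.2 CPM in Cas9, 25.9 to 59.5 in Cre and 0.948 to 10.2 in Flpo. The blood cell genes PTPRC, CD3E, CD14 and HBB were at 0 in Cas9 and Cre, 5 of the 6 blood markers had a count in Flpo, and no library exceeded 14.6 CPM for the list. The 6 fibroblast markers, all detected, summed to 280 to 1082 CPM in Cas9, 663 to 8125 in Cre and 188 to 216 in Flpo. ACTB, a structural gene outside the lists, stood at 56576 and 47327 CPM (with the composition factor) in Flpo replicates 1 and 3 and at 629 to 4173 in the other libraries. The part of these differences in the results below was not tested. The count of COL1A2, the collagen gene of that list, was 209 to 1052 in every library whatever its depth.

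The counts of 3 members were too low for a test. PSMB11, the catalytic subunit of the thymus, had no count in any library. PSMA8, the alpha subunit of the testis, had 1 count in Cas9 replicate 3 and 4 in Flpo replicate 2. PSMB8, an interferon-inducible catalytic subunit, had 17 counts in all. A further 18 of the 36 tested members had under 10 counts in Cre replicate 2, so their level in that library is imprecise. All further CPM values are scaled by library size and a composition factor (TMM), and on that scale a floor of 3 counts corresponded to 11.2 CPM in that library and 0.518 CPM in Flpo replicate 1.

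The members together took 0.314%, 0.375% and 0.396% of all counts in Cas9 replicates 1, 2 and 3. The Cre libraries, in the same order, gave shares of 0.373%, 0.281% and 0.287%. Those with Flpo gave 0.684%, 0.279% and 0.727%. Without that factor Flpo replicate 2 had the lowest share of the 9 libraries, just under Cre replicate 2, while the other Flpo libraries had the highest shares. On average this share was 0.362% ± 0.0425 with Cas9 alone, 0.313% ± 0.0517 with Cre and 0.563% ± 0.248 with Flpo (SD, n = 3 libraries). In bulk RNA, a lower level can mean fewer cells with the transcript or less transcript per cell, and these cannot be told apart.

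**Figure D1:**
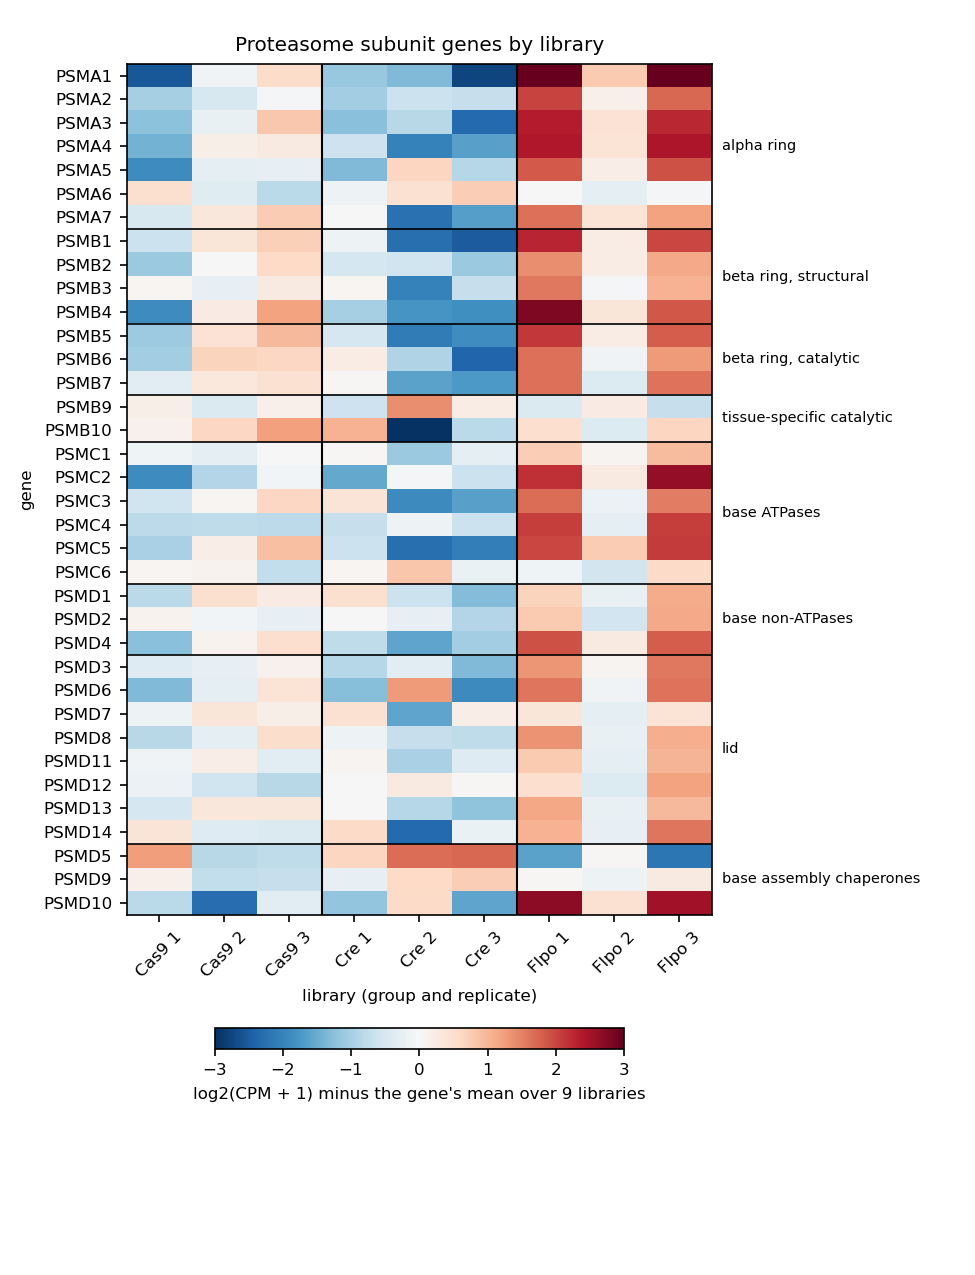
Level of the 36 tested proteasome subunit genes (rows, by role) in each of the 9 libraries (columns). Colour gives log2(CPM + 1) minus the gene's mean over the 9 libraries, with values beyond 3 drawn in the end colours. The columns of Flpo 1 and Flpo 3 are red for most rows, Flpo 2 is pale, and PSMD5 shows the opposite pattern.

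Among the tested members, the lower of Flpo replicates 1 and 3 exceeded all other 7 libraries for 29 of 36 (80.6%), against 29.5% of the 11905 genes tested. Flpo replicate 2 lay below both other Flpo libraries for 34 of 36 members, against 52.8% of all tested genes. For 23 of 36 members the level of Flpo replicate 2 fell within the range of the Cas9 libraries, a count that was not made over all tested genes. Within the Cas9 group, replicate 1 was the lowest library for 23 of 36 members (47.3% of all tested genes) and replicate 3 was the highest for 23 of 36 (38.7%). The members thus differed between replicates of the same group as well as between groups. The libraries named here are those with the members' own highest or lowest medians, of all libraries or of their group. Counts on them favour the members over all genes in advance and are description only.

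The plot of medians by library total shows the same spread beside depth. Relative to each gene's mean over the 9 libraries, the median member stood at -0.61, -0.10 and 0.25 (log2) in Cas9 replicates 1, 2 and 3. The medians were -0.15, -0.84 and -0.96 in Cre and 1.59, 0.00 and 1.41 in Flpo. The median of all tested genes moved much less, between -0.51 (Cre replicate 2) and 0.30 (Flpo replicate 3). Within Cas9 and within Flpo the deeper libraries had the higher member medians, while in Cre the shallowest library was not the lowest.

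**Figure D2:**
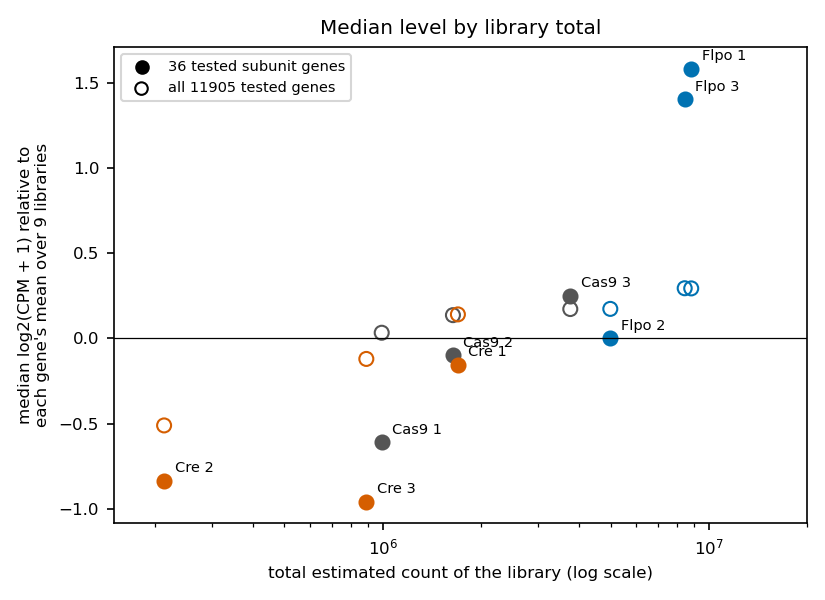
Median log2(CPM + 1) relative to each gene's mean over 9 libraries (vertical axis) against the library's total estimated count (horizontal axis, log scale). Filled points are the 36 tested subunit genes, open points all 11905 tested genes, and colours mark the groups. The filled points of Flpo 1 and Flpo 3 stand at 1.59 and 1.41, far above their open points, and Flpo 2 stands at 0.00.

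The promoters were searched for letters of factors known to act on these genes, since 16 members differed in the same direction. RefSeq windows (GRCh38.p14) of the 250 bases before a transcript start were available for 34 of the 39 members, with 41 windows in all, since some genes have several starts. No window was at hand for PSMA7, PSMB1, PSMB6, PSMB7 and PSMD4, which, apart from PSMB6, were among the 16. The shares below cover all members with a window, whether or not they passed the test. The core of the antioxidant response element that NFE2L1 binds, TGACNNNGC on either strand, occurred for 8 of 34 members (23.5%), against 13.2% of 27305 genes. Of the other letters, also on either strand, CCAAT occurred for 17 members (50%, against 37.0% of genes), GGGCGG for 20 (58.8%, against 46.2%) and CCGGAAG for 8 (23.5%, against 10.2%). The 27305 genes are all those with a window, tested here or not, so they are not a background of expressed genes. Each of these letters was more frequent among the members, so a higher share was not particular to TGACNNNGC. Its cause was not tested. None of the 9 TGACNNNGC matches overlapped a match of the other letters.

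Windows of 29 bases around the TGACNNNGC match follow for 3 members that were lower in Cre than in Flpo (PSMA4, PSMC5 and PSMD3) and for 3 that did not pass that test (PSMB3, PSMB9 and PSMD5), to set matches of both kinds side by side. Each is written along the gene's strand with the match in capitals, and in PSMC5 and PSMB9 the match is the reverse complement. PSMA4 lies on the plus strand at chr15:78540650-78540678, PSMC5 on the plus strand at chr17:63827654-63827682 and PSMD3 on the plus strand at chr17:39980760-39980788. PSMB3 lies on the plus strand at chr17:38752627-38752655, PSMB9 on the plus strand at chr6:32854034-32854062 and PSMD5 on the minus strand at chr9:120843038-120843066.
PSMA4: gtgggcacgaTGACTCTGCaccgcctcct
PSMC5: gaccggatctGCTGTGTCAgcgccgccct
PSMD3: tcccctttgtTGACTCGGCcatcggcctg
PSMB3: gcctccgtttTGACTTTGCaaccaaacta
PSMB9: gggcggggctGCCTCGTCActtgtctcgg
PSMD5: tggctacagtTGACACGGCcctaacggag
The windows of PSMA4 and PSMC5 precede a start inside the gene and overlap a GENCODE exon of the same gene. That of PSMB9 also precedes a start inside the GENCODE span of its gene, but overlaps no exon. The window of PSMC5 overlaps an exon of FTSJ3 too, and that of PSMD5 an exon of CUTALP. The remaining members with a match were PSMD12 and PSMD9, the latter with 2 matches. The match was present both in members that were lower in Cre and in PSMD5, whose fold change had the opposite sign. A match describes the letters only and is not evidence of binding.

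Cre was compared with Flpo to ask how the recombinase groups differ, in a fit of edgeR's quasi-likelihood test on all 9 libraries with Benjamini-Hochberg adjustment over all tested genes. At an adjusted p under 0.05, 16 of 36 members (44.4%) were lower in Cre and 0 were higher. Among all tested genes 14.3% were lower and 6.17% were higher. The members' median log2 fold change was -1.76, against -0.34 over all tested genes, and 31 of 36 lay below 0 (57.3% of all tested genes did). At an unadjusted p under 0.05 there were 23 members (63.9%, against 39.8%). The Cre and Flpo libraries did not overlap, with Cre lower, for 14 members (38.9%, against 27.9% of all tested genes).

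The number of calls depended on single libraries, for the members as for all genes. Without Cre replicate 2, Cre replicate 3 or Flpo replicate 1, no member was called, and neither was any other gene (0.0% of all tested genes each time). The members' median was then -1.71, -1.54 and -1.40. Without Flpo replicate 3, 5 members were called (3.28% of all tested genes), and without Cas9 replicate 2, 10 were called, all lower (7.06% of all tested genes lower). Without Flpo replicate 2 the count was 26, 25 lower and 1 higher, with all of the 16 among them (24.4% of all tested genes were then lower). Without both that library and Cre replicate 2 it was 22, 21 lower and 1 higher, again with all 16 (21.5% of all tested genes lower). DESeq2 called 20 (33.4% of all tested genes) and limma voom with sample weights 29 (67.6%). When library depth (log2 of the total) was added as a covariate, 0 members were called (0.0% of all tested genes), with 1 of 36 at an unadjusted p under 0.05, against 6.15% of all tested genes. Without the composition factor the median of all genes moved from -0.34 to 0.44, the calls over all genes turned from 735 higher and 1705 lower to 2039 higher and 840 lower, and the members' calls became 1 higher and 8 lower, while none of the 16 changed sign.

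**Figure D3:**
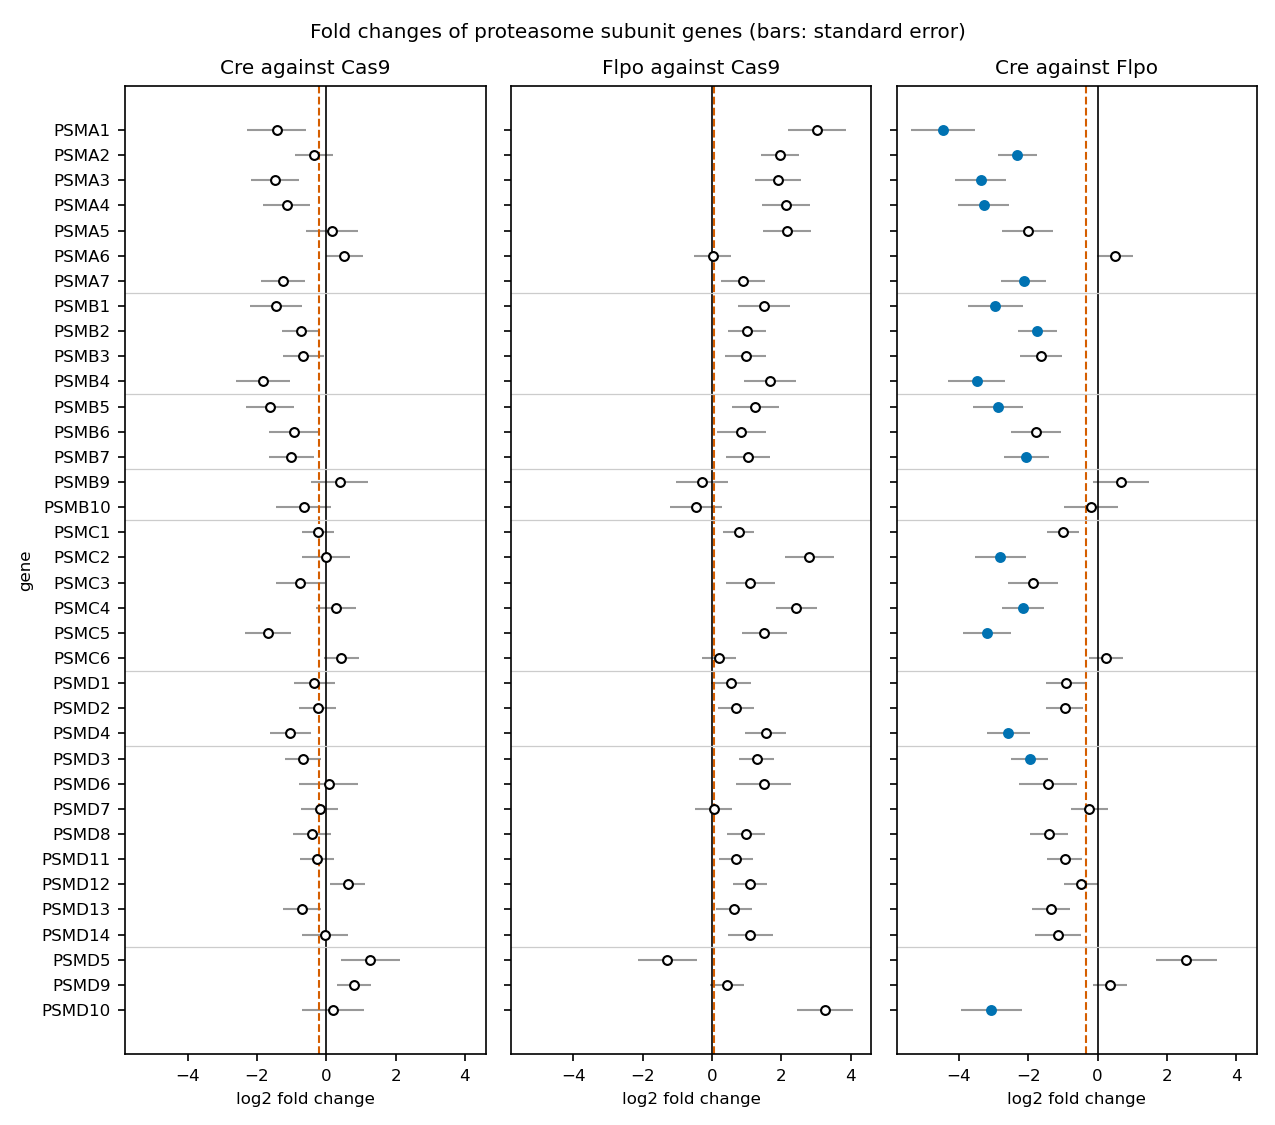
Log2 fold change of each tested subunit gene (rows, by role) in the 3 comparisons (panels), with bars for the standard error. Filled points passed an adjusted p of 0.05, the dashed line is the median of all tested genes and the solid line is 0. In the Cre against Flpo panel 16 points are filled, all to the left of 0, and the other panels hold none.

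The alpha ring, whose subunits form the gate of the core, had 5 of its 7 tested members lower in Cre than in Flpo (71.4%). Its median was -2.31 (log2). Over all tested genes 14.3% were lower, and this background applies to each role described next. PSMA1 (chr11:14504874-14643635) was at 9.14, 53.4 and 85.4 CPM in Cas9 replicates 1, 2 and 3, at 25.8, 22.4 and 7.72 in Cre and at 529, 101 and 591 in Flpo. Every Flpo library exceeded every other library, and the Cas9 and Cre ranges overlapped. PSMA1 was 22.1-fold lower in Cre than in Flpo (log2 -4.47, SE 0.92, adjusted p = 0.0167), the largest difference among the members.

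PSMA3 (chr14:58244831-58272012) was at 24.9, 51.1 and 107 CPM in Cas9, 24.8, 33.6 and 11.2 in Cre and 313, 81.5 and 293 in Flpo, in the order of the replicates. Flpo replicate 2 fell inside the Cas9 range but above all Cre libraries, and the fold change was -3.37 (SE 0.73, adjusted p = 0.0172). PSMA4 (chr15:78540405-78552419) was at 51.5, 159 and 169 CPM in Cas9, 89.7, 33.6 and 44.6 in Cre and 740, 185 and 758 in Flpo. Its Flpo libraries all lay above the others, and its fold change was -3.29 (SE 0.73, adjusted p = 0.0175). PSMA2 and PSMA7 followed with log2 fold changes of -2.31 (adjusted p = 0.0205) and -2.13 (adjusted p = 0.0383). For PSMA2 an overlapping gene model on the same strand, AC010132.3, held 2112 estimated counts, so the division of reads between the 2 models is uncertain.

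The remaining alpha genes did not pass the test. PSMA5 had a fold change of -2.01 (SE 0.74, adjusted p = 0.0663), close to those that did. PSMA6 was at 393, 219 and 159 CPM in Cas9, 253, 384 and 473 in Cre and 281, 228 and 270 in Flpo. Its groups overlapped and its Flpo libraries were nearly equal, with a log2 fold change of 0.51 (SE 0.53, adjusted p = 0.475).

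The 4 structural beta genes, which shape the ring without a protease site, had 3 members lower in Cre (75%), with a median of -2.34. PSMB4 (chr1:151399534-151401944) was at 20.8, 94.1 and 185 CPM in Cas9, 39.0, 22.4 and 21.4 in Cre and 561, 103 and 290 in Flpo. All Flpo libraries lay above all Cre libraries, and Flpo replicate 2 lay within the Cas9 range. The fold change was -3.49 (SE 0.82, adjusted p = 0.0196), or 11.2-fold lower in Cre.

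PSMB1 (chr6:170535117-170553341) was at 106, 212 and 270 CPM in Cas9, 149, 33.6 and 28.3 in Cre and 813, 193 and 664 in Flpo. Cre replicate 1 was far above the other Cre libraries but below Flpo replicate 2, and the fold change was -2.95 (SE 0.79, adjusted p = 0.0255). PSMB2 (chr1:35599544-35641844) was at 67.3, 146 and 222 CPM in Cas9, 100, 97.0 and 66.9 in Cre and 384, 170 and 325 in Flpo. Its Cre and Flpo libraries did not overlap, and the difference was smaller, at -1.74 (SE 0.56, adjusted p = 0.0452). PSMB3 did not pass, at -1.64 (SE 0.60, adjusted p = 0.0662).

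The 3 constitutive catalytic genes carry the protease activities. PSMB5 (chymotrypsin-like activity, chr14:23016543-23035230) was at 46.5, 135 and 197 CPM in Cas9, 70.2, 22.4 and 26.6 in Cre and 435, 117 and 355 in Flpo. Its Flpo libraries all exceeded its Cre libraries, and Flpo replicate 2 lay inside the Cas9 range. The fold change was -2.87 (SE 0.72, adjusted p = 0.0212), or 7.33-fold lower in Cre.

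PSMB7 (trypsin-like activity, chr9:124353466-124415444) was at 72.3, 115 and 127 CPM in Cas9, 94.5, 29.9 and 27.5 in Cre and 294, 69.8 and 286 in Flpo. Cre replicate 1 was above Flpo replicate 2, so the groups overlapped, and the fold change was -2.05 (SE 0.66, adjusted p = 0.0445). PSMB6 (caspase-like activity, chr17:4796144-4798503) was at 64.8, 214 and 206 CPM in Cas9, 157, 70.9 and 24.9 in Cre and 422, 125 and 329 in Flpo. Here too Cre replicate 1 exceeded Flpo replicate 2, and the gene did not pass the test (-1.78, SE 0.73, adjusted p = 0.0903).

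The interferon-inducible catalytic genes, which replace the constitutive ones in the immunoproteasome, were low in all libraries. PSMB9 was at 5.82, 3.44 and 5.71 CPM in Cas9, 2.92, 14.9 and 6.01 in Cre and 3.45, 6.13 and 2.71 in Flpo. PSMB10 was at 7.48, 10.9 and 17.1 CPM in Cas9, 15.1, 0 and 3.43 in Cre and 10.01, 4.86 and 11.2 in Flpo, where the 0 in Cre replicate 2 allows a level of up to the 11.2 CPM floor. The groups overlapped for both genes, and neither passed a test, with Cre against Flpo at 0.68 (SE 0.81, adjusted p = 0.539) for PSMB9 and -0.19 (SE 0.79, adjusted p = 0.872) for PSMB10. PSMB8 and PSMB9 overlap on opposite strands, and whether strand was used in counting is not given in the sources used here. For PSMB10 an overlapping gene model on the same strand, AC040162.1, held 456 estimated counts. The division of reads between these 2 models, and so the low level of PSMB10, is uncertain.

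**Figure D4:**
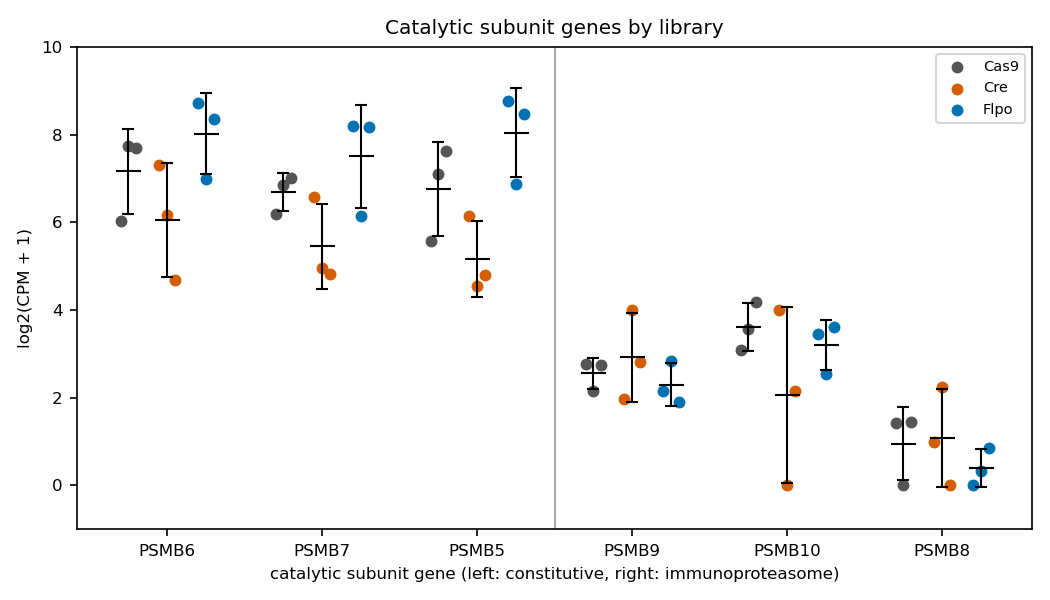
Level of the 6 catalytic subunit genes in each library as log2(CPM + 1), with constitutive genes on the left and immunoproteasome genes on the right. Points are libraries coloured by group, long ticks are group means and bars the SD (n = 3). The constitutive genes show 2 high Flpo libraries and 1 lower one, and the immunoproteasome genes lie lower with overlapping groups.

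The ring of ATPases, which unfolds substrates at the entrance of the core, had 3 of 6 genes lower in Cre (50%). The median of these 6 was -2.004. PSMC5 (chr17:63827152-63832026) was at 74.8, 169 and 277 CPM in Cas9, 94.0, 29.9 and 34.3 in Cre and 597, 251 and 636 in Flpo. All Flpo libraries lay above all Cre libraries, and the fold change was -3.19 (SE 0.70, adjusted p = 0.0174). PSMC2 (chr7:103344254-103369395) was at 6.65, 14.3 and 26.0 CPM in Cas9, 8.77, 26.1 and 17.2 in Cre and 128, 33.0 and 176 in Flpo. The Cas9 and Cre libraries covered nearly the same range and every Flpo library lay above it, with a fold change of -2.81 (SE 0.74, adjusted p = 0.0244).

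PSMC4 (chr19:39971005-39981441) was at 35.7, 36.1 and 35.7 CPM in Cas9, 38.0, 56.0 and 39.5 in Cre and 265, 50.3 and 265 in Flpo. The Cas9 libraries were almost identical, and only Cre replicate 2 and Flpo replicate 2 overlapped between the recombinase groups (-2.15, SE 0.60, adjusted p = 0.0293). The 3 ATPases that did not pass were PSMC3 at -1.86 (adjusted p = 0.0802), PSMC1 at -0.997 (adjusted p = 0.128) and PSMC6 at 0.24 (adjusted p = 0.738). PSMC5 shares exonic sequence with FTSJ3 and PSMC1 with NRDE2, each on the opposite strand, so reads of the partners may be included.

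Among the other subunits of the base, 1 of 3 was lower in Cre (33.3%). PSMD4 (chr1:151254703-151267479), a receptor for ubiquitin chains, was at 51.5, 134 and 176 CPM in Cas9, 73.1, 41.1 and 60.1 in Cre and 469, 151 and 439 in Flpo. No Cre library reached a Flpo library, and the fold change was -2.58 (SE 0.63, adjusted p = 0.0203). The scaffold genes PSMD1 and PSMD2 did not pass, at -0.91 (adjusted p = 0.255) and -0.94 (adjusted p = 0.198).

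The lid, which removes ubiquitin chains, had 1 of 8 genes lower in Cre, with a median of -1.24. That share, 12.5%, was near the 14.3% of all tested genes. PSMD3 (chr17:39980797-39997960), a structural lid subunit, was at 56.5, 62.5 and 81.4 CPM in Cas9, 40.9, 59.7 and 29.2 in Cre and 188, 78.5 and 226 in Flpo. Every Flpo library lay above every Cre library, and the fold change was -1.96 (SE 0.53, adjusted p = 0.0265). The 7 remaining lid genes lay below 0 (57.3% of all tested genes did), from -0.24 for PSMD7 to -1.43 for PSMD6, and none passed. PSMD14, the deubiquitinase of the lid, was among them at -1.15 (SE 0.65, adjusted p = 0.201).

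The 14 constitutive core genes, alpha and beta together, thus had 10 members lower in Cre (71.4%) and a median of -2.22. The 17 genes of the cap had 5 (29.4%) and a median of -1.34. Over all tested genes 14.3% were lower. This difference between core and cap is given as a description and was not tested.

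The 3 chaperones that build the base, which leave the finished particle, differed among themselves, and 1 of them was lower in Cre (33.3%). PSMD10 (gankyrin, chrX:108084207-108091618) was at 6.65, 1.72 and 9.42 CPM in Cas9, 4.87, 18.7 and 3.43 in Cre and 84.2, 17.1 and 74.9 in Flpo. Cre replicate 2, with 5 counts, lay slightly above Flpo replicate 2. The fold change was -3.07 (SE 0.88, adjusted p = 0.0309). Its processed pseudogene PSMD10P2 held 22, 29 and 14 estimated counts in Cas9, against 8, 3 and 33 for PSMD10 itself. When the pseudogene counts were added to PSMD10, the fold change shrank to -1.01 and the call was lost (adjusted p = 0.211).

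PSMD5 was at 24.9, 5.16 and 5.43 CPM in Cas9, 16.1, 33.6 and 35.2 in Cre and 2.59, 10.2 and 1.44 in Flpo. Every Cre library lay above every Flpo library, the reverse of the other members whose groups were separate. Its fold change of 2.56 (SE 0.87) missed the threshold at an adjusted p of 0.0524, and its counts were low, from 9 to 41. PSMD9 was at 145, 261 and 289 CPM in Cre and 178, 155 and 206 in Flpo, with overlapping groups (fold change 0.36, SE 0.49, adjusted p = 0.587). PSMD5 was described here after its values were seen.

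Flpo was compared with Cas9 alone to ask what Flpo adds. No member was called by edgeR with Benjamini-Hochberg adjustment (0.227% of all tested genes were), and the smallest adjusted p was 0.0723, for PSMC4. At an unadjusted p under 0.05 there were 13 of 36 members (36.1%), against 20.0% of all tested genes. The fold changes lay above 0 for 33 of 36 members (51.7% of all tested genes), and their median was 1.08, against 0.05 over all tested genes. For 8 members (22.2%, against 12.8% of all tested genes) every Flpo library lay above every Cas9 library. These were PSMA1, PSMA2, PSMA4, PSMA5, PSMC1, PSMC2, PSMC4 and PSMD10.

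The highest of these fold changes were those of PSMD10 at 3.27 (SE 0.81, adjusted p = 0.0747, or 1.84 with adjusted p = 0.120 when the pseudogene counts were added), PSMA1 at 3.03 (SE 0.84, adjusted p = 0.0927) and PSMC2 at 2.81 (SE 0.70, adjusted p = 0.0747). Without Flpo replicate 2, 12 members were called, all of them higher in Flpo (10.9% of all tested genes were), and 14 without both that library and Cre replicate 2 (12.2%). DESeq2 called 7 members, all higher (6.0% of all tested genes), and edgeR without the filter on low counts called 6, all higher (3.89%). Limma voom, with weights that counted Flpo replicate 2 least, called 30, of which 29 were higher, but it also called 61.0% of all tested genes.

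Cre was compared with Cas9 alone to ask what Cre adds. No member was called by edgeR (0.0% of all tested genes), with a smallest adjusted p of 0.619, or by DESeq2 (0.0336%), and 3 of 36 had an unadjusted p under 0.05, against 7.38% of all tested genes. The median fold change was -0.39, against -0.22 over all tested genes, with 26 members below 0 (58.5% of all tested genes) and 10 above. The lowest values were those of PSMB4 at -1.83 (SE 0.78), PSMC5 at -1.68 (SE 0.66) and PSMB5 at -1.62 (SE 0.69). Every Cre library lay above every Cas9 library for PSMC4 and PSMD12 (3.46% of all tested genes did so), and no member was separated with Cre lower (6.37%). Limma voom with sample weights called 18 members, 3 higher and 15 lower, beside 33.3% of all tested genes. All 3 comparisons share libraries, so their fold changes are not independent of each other.

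Levels between genes were compared per kilobase of transcript, as mean CPM per kb over the 9 libraries. The length was the median of the gene's protein-coding transcripts in the GENCODE basic set. It is not the length of the transcripts expressed here, and the order of genes depends on it. PSMA6 stood highest at 330.1, followed by PSMB1 at 296 and PSMA4 at 263. The constitutive catalytic genes PSMB6, PSMB5 and PSMB7 were at 208, 155 and 127, and PSMB10 and PSMB9 were the lowest of the tested members in this mean, at 7.31 and 7.22. The low end differed between groups too, with PSMA5 lowest in Cas9 (5.08), PSMB10 in Cre (5.07) and PSMD5 in Flpo (3.09). PSMA6 led in Cas9 and Cre, at means of 287 and 413 CPM per kb, whereas in Flpo PSMB1 and PSMA4 were highest, at 599.7 and 594. Over the libraries PSMA6 ran from 178 to 528 CPM per kb and PSMB1 from 30.5 to 876, and their order in the mean was not tested. PSMA6 exceeded PSMB1 in every Cre library (282, 429 and 528 against 160, 36.2 and 30.5). It lay below PSMB1 in Flpo replicates 1 and 3 (314 and 301.5 against 876 and 716) and in Cas9 replicate 3, and above it in the remaining libraries.

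Sequence that a gene shares with many others can make read assignment uncertain, so it was measured for each member. The repeated share of a gene is the percentage of the 24-base words of its GENCODE transcripts that also occur in transcripts of at least 10 other genes. For the 12 tested members with no such word the median Cre to Flpo fold change was -2.09, 7 were called lower and 0 lay above 0. The 11 members with a share up to 1% had a median of -2.01, with 5 called and 0 above 0. The 13 members above 1% had a median of -0.997, with 4 called, and held all 5 members with a fold change above 0. Those were PSMD9 with a share of 6.37%, PSMA6 with 3.94%, PSMB9 with 2.34%, PSMC6 with 2.16% and PSMD5 with 1.11%. PSMB2, with the highest share at 8.20%, was among the genes called lower. The genes share libraries and depth, and the part of repeated sequence in their levels was not tested.

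**Figure D5:**
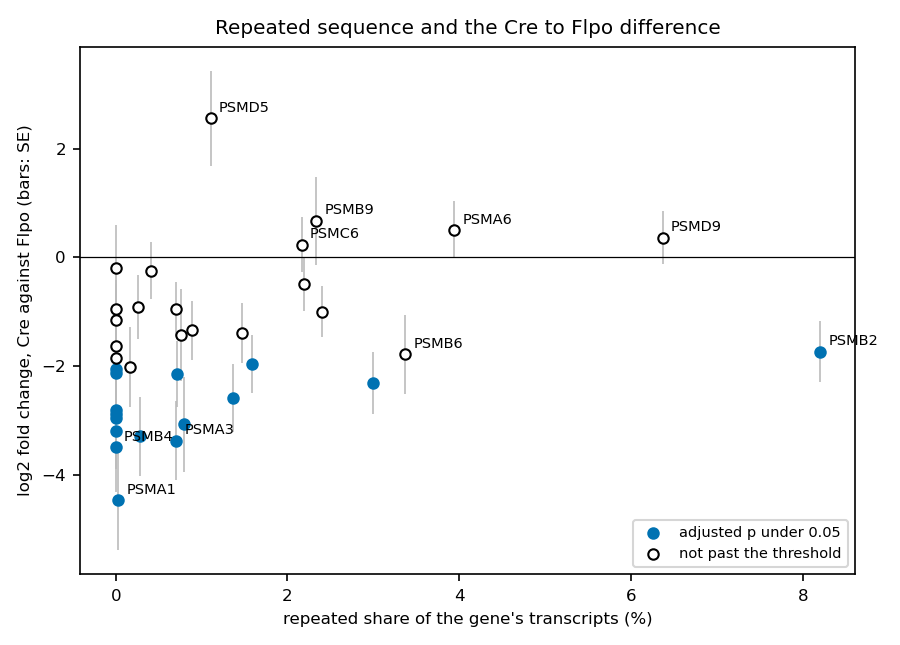
Log2 fold change of Cre against Flpo (vertical axis, bars for the standard error) against the repeated share of the gene's transcripts in percent (horizontal axis) for the 36 tested subunit genes. Filled points passed an adjusted p of 0.05. The 5 points above 0 all lie right of 1%, and PSMB2 at 8.20% lies below 0.

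Genes that work with the proteasome were taken as a list of 39, all tested. Cre against Flpo, 11 were lower and 1 was higher by edgeR with Benjamini-Hochberg adjustment, or 28.2% and 2.56%, against 14.3% and 6.17% of all tested genes. Their median was -1.55, against -0.34 over all tested genes, and the same background applies to each group of partners described next. None was called in the comparisons with Cas9. Of the core assembly chaperones, 3 of 5 were lower: PSMG1 at -3.95 (adjusted p = 0.0173), PSMG2 at -2.13 (adjusted p = 0.0471) and PSMG3 at -1.70 (adjusted p = 0.0361). PSMG1 held 0.974, 0 and 2.57 CPM in Cre against 22.9, 16.6 and 29.5 in Flpo, with no overlap. The Cre values rest on 2, 0 and 3 counts, and the 0 allows a level of up to 11.2 CPM. PSMG1 passed the filter on low counts only through the Flpo libraries, so its call is not independent of its level there.

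Among the bound factors, 4 of 10 were lower. They included SEM1, a small lid subunit whose symbol falls outside the rule, at -3.62 (adjusted p = 0.0167), UCHL5, a deubiquitinase of the cap, at -3.59 (adjusted p = 0.0182), and AKIRIN2, a factor for nuclear import of proteasomes, at -2.69 (adjusted p = 0.0247). SEM1 was at 14.6, 22.4 and 14.6 CPM in Cre and 285, 99.4 and 223 in Flpo, and the groups were far apart. The fourth was ADRM1, a ubiquitin receptor, at -2.51 (adjusted p = 0.0407).

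PSMF1, a proteasome inhibitor, was lower at -2.61 (adjusted p = 0.0475), and PSME4, a different cap for the core, was the single partner that was higher in Cre. PSME4 was at 54.6, 59.7 and 82.4 CPM in Cre and 23.1, 19.7 and 15.6 in Flpo, without overlap (1.75, SE 0.48, adjusted p = 0.0268). None of the 8 shuttle factors and segregase genes passed, and VCP had -1.55 (adjusted p = 0.0646).

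UBB, which encodes chains of ubiquitin, was at 391, 964 and 13350 CPM in Cas9, 270, 1941 and 537 in Cre and 50563, 10175 and 28220 in Flpo. Cas9 replicate 3 lay above Flpo replicate 2 and far above the other Cas9 libraries, and no Cre library reached a Flpo library. UBB was lower in Cre than in Flpo at -5.02 (SE 1.66, adjusted p = 0.0479). Of the 6 genes of the NFE2L1 axis, 1 was lower, SYVN1, a ubiquitin ligase of the endoplasmic reticulum, at -3.46 (adjusted p = 0.0285). SYVN1 had 4, 1 and 0 counts in Cre, and it too passed the filter on low counts only through the Flpo libraries. NFE2L1 itself was at 64.0, 53.9 and 89.9 CPM in Cas9, 84.8, 18.7 and 59.2 in Cre and 36.2, 35.3 and 17.9 in Flpo. Its Cre and Flpo libraries overlapped, with no call by edgeR (0.92, SE 0.55, adjusted p = 0.224). Every Flpo library lay below every Cas9 library, again with no call by edgeR (Flpo against Cas9 at -1.22, SE 0.55, adjusted p = 0.239).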

How the data were processed

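The authors deposited 1 table of estimated counts by gene, and Salmon 0.14.1 and hg38 are named in the submitters' processing notes. Its annotation, filters and strand setting are not given in the sources used here. From 48.7% to 60.8% of the values above 0 in each library had decimals, so all were rounded to whole numbers, although the design had been written for counts. The test was edgeR 4.0.16 (R 4.3.3), quasi-likelihood, with TMM scaling, all 9 libraries in 1 fit, a minimum count of 10 and total of 15, and Benjamini-Hochberg adjustment over 11905 genes at a threshold of 0.05. The SE is the absolute log2 fold change over the square root of F. CPM values (counts per unit of scaled library total) use TMM, and shares of all counts do not. Gene coordinates are those of GENCODE 29 (GRCh38). Alternatives were DESeq2 1.42.0, limma 3.58.1 (voom), other filters and scalings, a depth covariate, thinned counts, added pseudogene counts, a replicate block and leaving out libraries. Code was tested on simulated data. Members, lists and alternatives were chosen with earlier results of these data known. Any member could be named; values in every library were planned for the catalytic genes and for up to 3 called genes per role with the largest fold changes. The floor of 3 counts covers counting error only. A gene of the partner list is not reported here by name.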

Additional observations from a re-analysis of the deposited data

Results flagged for a closer look

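The effects of Cre and of Flpo against Cas9 alone differed for 16 proteasome subunit genes. The comparison of Cre with Flpo tests that difference itself, since Cas9 cancels. These 16 genes passed it by edgeR with Benjamini-Hochberg adjustment, all of them lower in Cre (14.3% of all tested genes were lower and 6.17% higher). The difference was larger than the spread between replicates under that test, but 0 of the 16 passed when Cre replicate 2, Cre replicate 3 or Flpo replicate 1 was left out. In those fits no gene of the whole table passed, and the fold change of PSMA1, for example, was -4.54, -4.05 and -4.21, against -4.47 with all libraries. With library depth as a covariate 0 of the 16 passed either, and depth and the Flpo group cannot be told apart.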

How the results depend on the processing

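The count of members called for Cre against Flpo (16) became 9 without TMM, 29 with limma voom and sample weights and 0 with log2 total count as a covariate, and it ran from 0 to 26 when 1 library was left out. The count stayed within 1.5 times of 16 in 12 of 21 settings. The members' median minus that of all genes for this comparison (-1.42) was -2.03 with limma voom, -0.61 with no low-count filter, -0.82 with the covariate and -1.68 to -1.16 with 1 library left out. PSMA7 turned to 0.10 with the covariate, the single sign change among the 16 genes and their settings. For Flpo against Cas9 the count of 0 became 7 with DESeq2, 30 with limma voom, 6 with no low-count filter, 14 without Flpo replicate 2 and Cre replicate 2 together (chosen after seeing the data) and 0 to 12 with 1 library left out, and the median difference (1.03) was 0.48 with no filter and 0.77 to 1.39 with 1 library left out. For Cre against Cas9 the count of 0 became 18 with limma voom, and the median difference (-0.17) was -0.72 in counts thinned to the smallest total. The summed share of the members moved to 0.489% in Cas9 and 0.384% in Cre when genes above 1% of counts were left out of the total, and to 0.251% in Cre with TMM-scaled totals. In Flpo it was 0.767% and 0.793% under the same changes, against 0.563%, which is within 1 SD of its widely spread libraries. The cause of these changes was not tested. With the replicate number as a block, 11 of the 16 calls remained in Cre against Flpo, while calls over all genes went from 2440 to 1568 (PSMD10 at -2.83, adjusted p = 0.071), and 0 members were called in the other comparisons. Deviations of libraries with the same number correlated at 0.37, 0.19 and -0.21 for Cre and Flpo. The values were -0.48, -0.14 and -0.37 for Cre and Cas9 and -0.55, -0.26 and 0.53 for Flpo and Cas9. With signs this mixed, they cannot tell whether libraries of the same number were handled together, and the labels give only the number. Thinned to the smallest total, 12 of the 14 called genes that could still be tested remained called, beside 1070 of 4883 genes, of which 708 were lower. Depth limits Cre replicate 2 most, where 18 tested members had under 10 counts.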
